A study of Ovis aries with 6 samples.

Results

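The genes described here are 150 annotated sheep genes whose read counts were high in the same 3 of 6 testis libraries, a split that crosses the diets of the study. RNA was sequenced from testes of Hu sheep, a breed kept in China, 3 from animals fed at maintenance energy and 3 from animals fed at 55% energy levels. The latter diet is called restricted. The labels give no age and no time of sampling, and do not say whether the samples are from separate animals, so p-values measure only the spread between these samples. What the 55% refers to is not stated either. Replicates are numbered within each diet in the order in which the samples are listed, and the numbers pair nothing across diets.

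The members were taken from the 20921 genes with Ensembl sheep identifiers among the 29307 genes of the count table. Of these, 10260 averaged 10 CPM or more over the 6 libraries and are called eligible (CPM, counts per 1000000 counted reads). Each was scored by the log2 ratio of the lowest CPM among maintenance replicate 1 and restricted replicates 2 and 3 (titled A13, D10 and D11) to the highest CPM among maintenance replicates 2 and 3 and restricted replicate 1 (A15, A16 and D9), with 1 CPM added to both. The first 3 are called the high libraries and the other 3 the low libraries. The 150 genes with the highest score were taken, which is 1.46% of the eligible genes. Because these values chose the members, the separation of high from low libraries is a description and has no test.

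Whole testis RNA is a mixture. The seminiferous tubules hold germ cells at successive stages of spermatogenesis together with the Sertoli cells that nurse them, and between the tubules lie the Leydig cells, which make testosterone, with vessels and immune cells. A transcript used by 1 of these cell types is measured relative to the RNA of all the others. In such bulk samples, fewer cells of a type and less RNA per cell cannot be told apart. The files do not pair the identifiers with gene names, and 0 of the 29307 identifiers occurred in the RefSeq table at hand. The members are therefore described by identifier, level, length and behaviour across libraries. Their roles, the usual testis marker genes and the tissue label were not assessed here, and no sequence is printed.

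By the choice of genes, each member was at least 2.01 times as abundant in the 3 high libraries as in the 3 low libraries (CPM + 1). The median CPM over the 150 members was 46.5 in maintenance replicate 1, 42.6 in restricted replicate 2 and 35.6 in restricted replicate 3. It was 13.9 in maintenance replicate 3, 12.96 in restricted replicate 1 and 7.83 in maintenance replicate 2. High and low values thus occurred in both diets, as the rule requires. Over all eligible genes the median CPM ran only from 35.9 to 47.0, and it was also higher in the high libraries (46.3, 46.0 and 47.0) than in the low ones (35.9, 40.1 and 39.8).

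**Figure D1:**
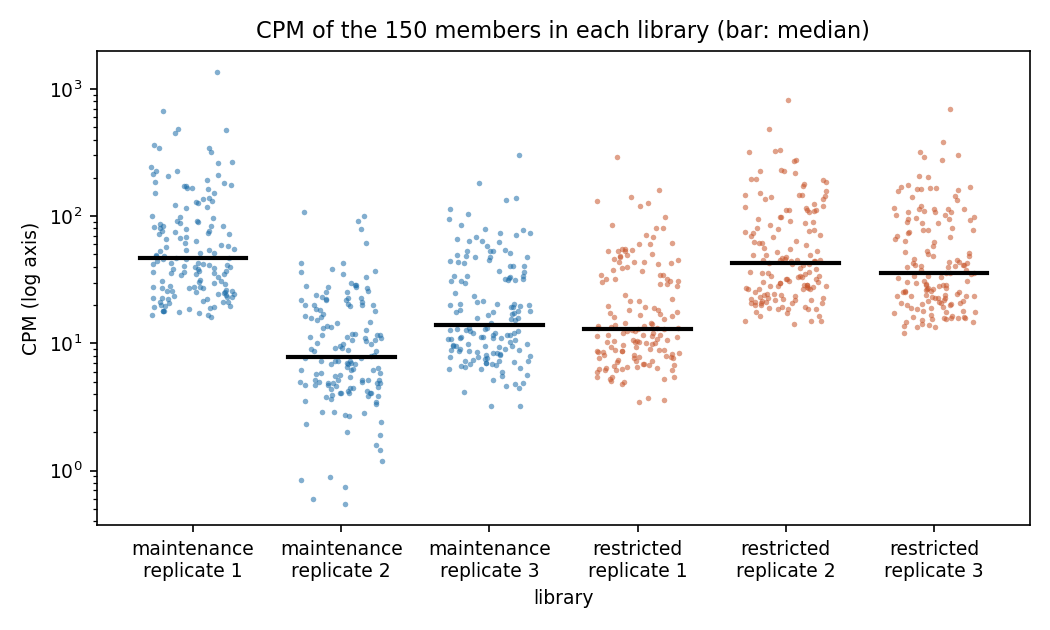
CPM on a log axis for each of the 150 members (points, spread sideways at random) in each of the 6 testis libraries, with the median as a bar and the diets in blue and orange. The medians of maintenance replicate 1 and restricted replicates 2 and 3 lie between 35.6 and 46.5 CPM, and those of the other 3 libraries between 7.83 and 13.9 CPM.

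Together the members took 1.45% of the counted reads in maintenance replicate 1, 0.210% in maintenance replicate 2 and 0.431% in maintenance replicate 3. In the restricted testes they took 0.408% in replicate 1, 1.18% in replicate 2 and 1.02% in replicate 3. The diet means were 0.695% ± 0.658 for maintenance and 0.867% ± 0.405 for restriction (SD, n = 3 each). That the diets overlapped is set by the choice of genes, as each diet holds high and low libraries. The highest maintenance library exceeded the lowest by a factor of 6.87, and the highest restricted library exceeded the lowest by 2.88. Restricted minus maintenance was 0.172 percentage points. Leaving out maintenance replicate 2 turned this difference to -0.071, and leaving out restricted replicate 2 or maintenance replicate 3 brought it down to 0.018 or 0.039. It widened to 0.546 with maintenance replicate 1 left out and to 0.401 with restricted replicate 1 left out. The direction between diets therefore turned with the removal of 1 library.

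**Figure D2:**
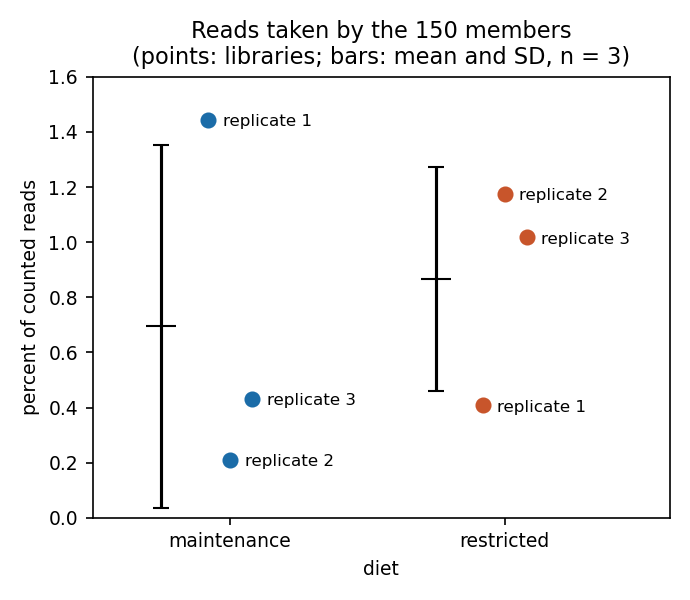
Percent of the counted reads taken by the 150 members in each library (points), by diet, with the mean and SD of the 3 libraries as bars. By the choice of genes, both diets hold high and low libraries. The share ran from 0.210 to 1.45% in maintenance and from 0.408 to 1.18% in restricted testes.

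Depth differed between the libraries and moved in part with the members. The high libraries held 15513155 (maintenance replicate 1), 14885589 (restricted replicate 2) and 13876765 counted reads (restricted replicate 3). The low libraries held 20050430 (maintenance replicate 2), 17893995 (maintenance replicate 3) and 15311385 (restricted replicate 1). Maintenance replicate 2, the deepest library, also had the lowest member levels. The ranges overlapped, since maintenance replicate 1 was deeper than restricted replicate 1. The part of depth in the result was not tested. In every high library each member had at least 167 reads. The smallest count of any member in any library was 11, in maintenance replicate 2, at 0.549 CPM. Where a member fell below 1 CPM in that library, its ratio of highest to lowest library rests on few reads.

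Scores of the 150 members ran from 1.01 to 1.91 with a median of 1.12, so the lowest high library exceeded the highest low library by a factor of 2.01 to 3.75 (CPM + 1). The list has no natural edge. The last members, at places 149 and 150, scored 1.0082 and 1.0075, and the first genes left out, at places 151 and 152, scored 1.0067 and 1.0048. Gene 150 had 16.7, 15.1 and 14.3 CPM in the high libraries and 5.19, 6.59 and 6.14 CPM in the low ones. Gene 151 had 104, 85.2 and 75.2 CPM and 27.1, 36.9 and 29.9 CPM.

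The highest score belonged to ENSOARG00000000485, a gene of 735 bases. It had 46.0, 2.34 and 4.81 CPM in maintenance replicates 1 to 3 and 5.49, 33.9 and 23.4 CPM in restricted replicates 1 to 3, from 714, 47, 86, 84, 505 and 324 reads. Like every member by the rule, it had low and high libraries within each diet. Its diet means were 17.7 ± 24.5 and 20.9 ± 14.4 CPM (SD, n = 3 each). Its nearest high and low libraries, restricted replicates 3 and 1, differed 4.26-fold in CPM (95% exact interval 3.34 to 5.48). Such intervals cover counting error only.

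ENSOARG00000019298 (1043 bases) had the second highest score and the lowest mean level of all members, 10.04 CPM. Its CPM was 16.1, 1.45 and 3.24 in maintenance and 3.72, 22.0 and 13.7 in restricted testes. Here restricted replicate 2, not maintenance replicate 1, was the highest library. The nearest high and low libraries differed 3.68-fold (95% exact interval 2.72 to 5.04).

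The most abundant member by CPM, at place 44 of the score, was a gene of 16722 bases with 1351, 101 and 305 CPM in maintenance and 291, 820 and 692 CPM in restricted testes. The next most abundant, of 7283 bases, had 480, 107 and 182 CPM in maintenance and 161, 485 and 381 CPM in restricted testes. Long genes collect more reads at the same abundance, so levels are compared between genes per length. On the FPKM scale (fragments scaled by gene length and library total) the leading members were short. The 3 highest mean FPKM values, 724, 609 and 530, belonged to genes of 357, 399 and 396 bases. The first of them had 671, 19.7 and 103 CPM in maintenance and 121, 334 and 303 CPM in restricted testes, so its highest and its lowest library were both maintenance testes. Of the 10 members with the highest mean FPKM (120 to 724), 9 were shorter than 800 bases, as were 23 of all 150. FPKM divides by length, which favours short genes in such a ranking, and the eligible genes were not ranked in this way. For all 10 the length was a multiple of 3, as in a coding sequence without untranslated ends. That held for 60.7% of all members and 67.6% of eligible genes. The median mean FPKM of the members was 12.6, against 24.7 for the eligible genes.

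Most members were genes of modest level. Their median mean CPM was 26.4, at the 31.4th percentile of the eligible genes, whose median was 43.7. Of the 150 members, 56 lay between 10 and 20 CPM, 45 between 20 and 50, 29 between 50 and 100, and 20 at 100 CPM or above. These were 2.51, 1.32, 1.31 and 0.828% of the eligible genes in each class, so the share of members was lower in the more abundant classes. The median score of all eligible genes also fell across these classes, at 0.1, -0.034, -0.208 and -0.535. The score and the classes rest on the same CPM values, and these shares have no test. The 20 most abundant members took 0.712% of the reads in maintenance replicate 1 and 0.0846% in maintenance replicate 2. The 56 least abundant took 0.145 and 0.0232%.

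Gene length was not used by the rule. The members had a median length of 2406 bases (range 240 to 26720), against 1827 bases for the 10260 eligible genes. With the eligible genes divided into 3 classes of length, 35 members fell in the shortest class (up to 1299 bases), 43 in the middle class and 72 in the longest (from 2571 bases). These were 1.02, 1.26 and 2.11% of the eligible genes in each class. The median was 2758 bases for the members of at least 20 CPM and 2516 bases for the 150 genes chosen on TMM-scaled CPM (trimmed mean of M values, a scaling that discounts genes with extreme ratios). Lengths that are a multiple of 3 made up 60.7% of members and 67.6% of eligible genes. RNA quality is not given in the sources used here, so its part in the difference in length was not tested.

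The members followed 1 common profile closely, which is partly what the score asks for. Across the 6 libraries, the correlation of log2(CPM + 1) between 2 members had a median of 0.971 over 11175 pairs (lowest 0.718). Each member correlated with the mean of the other members at 0.873 to 0.999. These are descriptions over 6 libraries that all genes share. No such correlation was computed for the other eligible genes, so a close profile is not shown to be particular to the members. The span was wide, as the rule favours: the highest library exceeded the lowest by a median factor of 5.88 in CPM (3.07 to 64.1), by at least 4 in 134 members and by at least 10 in 28. On CPM + 1 the median factor was 5.385 in members and 1.82 in the other eligible genes (1.05 to 94.5). The widest span of a member, in a gene of 4114 bases at place 28 of the score, ran over 185, 2.89 and 36.8 CPM in maintenance and 31.2, 115 and 90.4 CPM in restricted testes.

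Within the high and the low libraries the rule fixes no order, yet the members shared most of one. Maintenance replicate 2 was the lowest library in 148 of 150 members. By the rule only a low library can be the lowest in a member. Among the 5574 other eligible genes that were lowest in 1 of these 3 libraries, it was maintenance replicate 2 in 74.4%. Maintenance replicate 3 and restricted replicate 1 were the lowest in 1 member each. The highest library was maintenance replicate 1 in 89 members, restricted replicate 2 in 55 and restricted replicate 3 in 6. Among the 6404 other eligible genes that were highest in 1 of these 3 libraries, the shares were 34.1, 22.4 and 43.5%. The commonest full order, in 44 members, ran from maintenance replicate 1 through restricted replicates 2 and 3, maintenance replicate 3 and restricted replicate 1 down to maintenance replicate 2. The same order with maintenance replicate 3 and restricted replicate 1 exchanged held in 25 more. How often the other eligible genes had these orders was not counted. The commonest order was also that of the libraries on the main axis of all tested genes, described below.

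The 2 libraries most alike in the members came from different diets, and they were also the most alike in the other eligible genes. Maintenance replicate 3 and restricted replicate 1 differed by less than 1.5-fold (CPM + 1) in 146 members (97.3%, against 95.2% of the others), with a median absolute log2 difference of 0.14. Restricted replicates 2 and 3 did so in 141 members (94.0%, against 91.6%), and maintenance replicate 1 and restricted replicate 2 in 121 (80.7%, against 88.9%). Maintenance replicate 2 stood below its 2 low neighbours. It was within 1.5-fold of maintenance replicate 3 in only 30 members and of restricted replicate 1 in 52, and in 40 members both of them were at least 2 times as high. Of the other eligible genes, 84.7% were within 1.5-fold between maintenance replicates 2 and 3, and 88.8% between maintenance replicate 2 and restricted replicate 1. The count at 2 times was not made for the other eligible genes.

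Libraries of different diet were also compared within each side. On the high side, maintenance replicate 1 lay above both restricted replicates 2 and 3 in 89 members (59.3%, against 30.0% of the other eligible genes). It lay between them in 36 (24.0%, against 21.9%) and below both in 25 (16.7%, against 48.1%). Its log2 ratio to their mean had a median of 0.21 (quartiles -0.079 and 0.51) and was positive in 104 members, against 38.9% of the other eligible genes. On the low side, restricted replicate 1 lay between maintenance replicates 2 and 3 in 100 members (66.7%, against 41.7% of the other eligible genes). It lay above both in 49 (32.7%, against 36.8%) and below both in 1 (0.667%, against 21.5%). Its log2 ratio to the mean of those 2 had a median of 0.27 and was positive in 135 members, against 62.5% of the other eligible genes. The direction on the low side rests on maintenance replicate 2, since maintenance replicate 3 alone exceeded restricted replicate 1 in 101 members (median log2 difference 0.069). With 1 library against 2, neither comparison has a test.

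**Figure D3:**
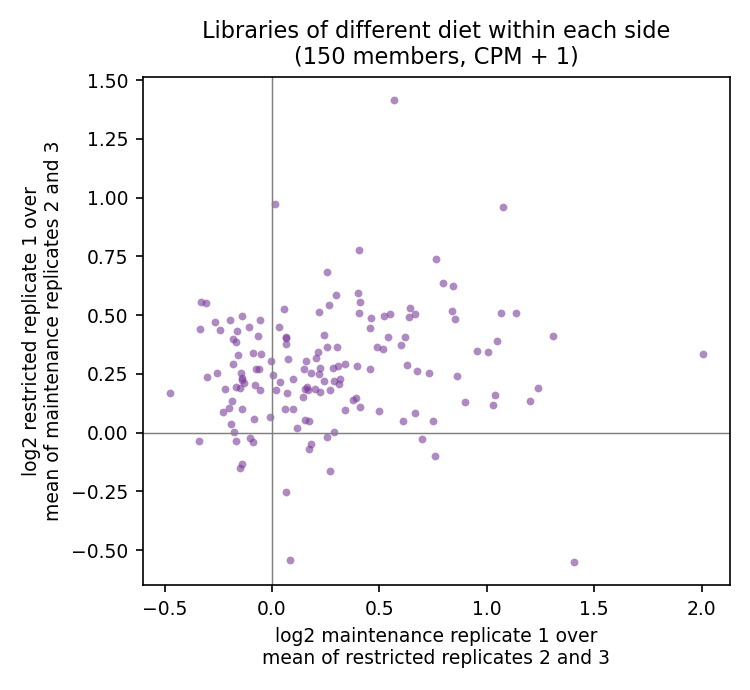
For each of the 150 members, the log2 ratio of maintenance replicate 1 to the mean of restricted replicates 2 and 3 (horizontal) and of restricted replicate 1 to the mean of maintenance replicates 2 and 3 (vertical), both from CPM + 1. Points to the right of 0 (104 members) are higher in the maintenance library of the high side, and points above 0 (135 members) are higher in the restricted library of the low side.

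ENSOARG00000018615 and ENSOARG00000011147 had the most negative diet estimates of all members. ENSOARG00000018615 (4746 bases) had 76.5, 4.89 and 6.32 CPM in maintenance and 7.32, 20.6 and 15.9 CPM in restricted testes, so that maintenance replicate 1 alone exceeded every other library by far. In all, 10 members had at least 2 times the CPM of both restricted replicates 2 and 3 in maintenance replicate 1. The other eligible genes were not counted in this way. ENSOARG00000011147 (2793 bases) had 173, 12.7 and 30.9 CPM in maintenance and 14.6, 63.7 and 65.7 CPM in restricted testes.

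The study's own comparison, restricted against maintenance, asks how dietary energy restriction alters testis gene expression. It was made with the edgeR quasi-likelihood test on all 22323 genes that passed a filter on low counts, and all 150 members passed that filter. At an adjusted p of 0.05 it called 0 of the 150 members and 0% of all genes. At an unadjusted p below 0.05 it found 0 members, against 0.466% of all genes higher and 1.96% lower in restricted testes. The smallest unadjusted p of a member was 0.227. Limma-voom and DESeq2 also gave 0 members at an unadjusted p below 0.05. As 1 maintenance and 2 restricted libraries are high in every member, the diets overlap in all 150 by the choice of genes, and a low p was hardly possible.

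The estimates leaned to higher levels in restricted testes, as that choice also favours. The median log2 change was 0.29 (range -1.12 to 0.80), with 125 of 150 above 0, against a median of -0.052 and 44.1% above 0 over all tested genes. Precision was low, with a median standard error of 0.64 for members and 0.42 for all tested genes. The median 95% interval of a member reached 1.48 to either side. ENSOARG00000019298 had the highest estimate, 0.80 (95% interval -1.34 to 2.93; adjusted p = 1 after rounding, edgeR), and ENSOARG00000018615 the lowest, -1.12 (-3.45 to 1.21; adjusted p = 1). ENSOARG00000000485 had 0.11 (-2.38 to 2.60). None of these intervals sets the diets apart.

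**Figure D4:**
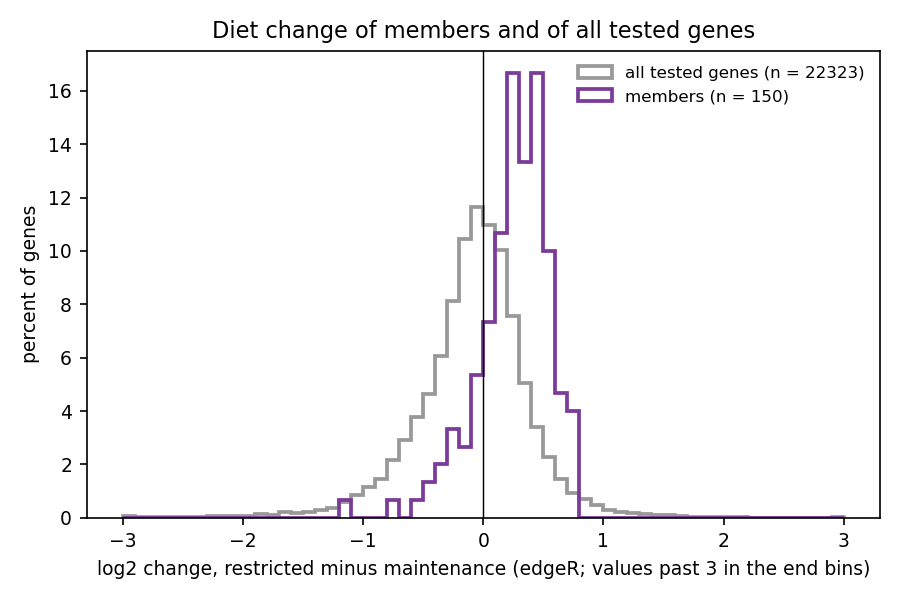
Distribution of the log2 change, restricted minus maintenance, by the edgeR fit for the 150 members (purple) and for all 22323 tested genes (grey), as percent of genes per bin of 0.1. The members centre on 0.29 and all tested genes on -0.052, a shift that the choice of members favours.

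Single libraries decided these estimates. The median log2 change of the members fell to -0.044 when maintenance replicate 2 was left out and to -0.004 when restricted replicate 2 was. Leaving out maintenance replicate 3 gave 0.13, restricted replicate 3 gave 0.19 and restricted replicate 1 gave 0.68. In the fit without maintenance replicate 1 the median rose to 1.25, all 150 estimates were positive and 113 members had an unadjusted p below 0.05, where 5.67% of all genes were as low and higher in restricted testes. In that fit both remaining maintenance libraries are low by the choice of genes, so the choice of genes and diet cannot be told apart. By limma-voom the median was 0.55, on its own log2 scale.

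With the first principal component of log2 CPM as a covariate, the diets were compared within the main axis of the libraries. This axis carried 57.4% of the variance over all tested genes, and the 3 high libraries (47.1 to 89.6) lay apart from the 3 low ones (-106 to -37.2) on it. The members' split is the split of this axis, and their commonest order of libraries is the order along it. With the covariate, 6 members were higher and 4 lower in restricted testes at an unadjusted p below 0.05, where 2.45 and 6.13% of all genes were. The axis was computed from these same values, members included, and the fit takes it as known. These p-values are therefore a description. No member passed an adjusted p of 0.05 by edgeR. The smallest adjusted p belonged to ENSOARG00000011147, with a log2 change of -0.87 (adjusted p = 0.467, edgeR). That of ENSOARG00000018615 was also -0.87 (adjusted p = 0.575). The members' median was 0.095 and that of all genes -0.007.

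A library that took no part in the choice was read by choosing 150 genes anew from the other 5. Maintenance replicate 1 lay above the 3 low libraries in 150 of 150 genes chosen without it, against 45.8% of the genes eligible in those 5 libraries. Restricted replicate 2 did so in 150 (50.3% of the eligible) and restricted replicate 3 in 147 (58.3%). Maintenance replicate 2 lay below the 3 high libraries in 149 of the genes chosen without it (51.5%), maintenance replicate 3 in 150 (48.6%) and restricted replicate 1 in 149 (47.1%). A difference of more than 2-fold from the nearest library of the other side was seen in 149 genes for maintenance replicate 2 (19.6% of the eligible) and in 85 for maintenance replicate 3 (3.22%), with 90 to 117 for the other libraries (4.01 to 10.4%). The split itself had been seen in all 6 libraries and is that of the main axis of all tested genes, so high counts were favoured in advance. The eligible genes beside them were not chosen on the other 5 libraries. These counts are therefore a description.

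The lists chosen without 1 library still held 138 of the members where maintenance replicate 2 was left out, 112 for restricted replicate 2, 102 for maintenance replicate 1 and 100 for restricted replicate 1. They held 76 where restricted replicate 3 was left out and 71 where maintenance replicate 3 was. These last 2 libraries set the score most often: restricted replicate 3 was the lowest high library in 103 members, and maintenance replicate 3 the highest low library in 101.

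Genes of this profile outnumbered genes of the opposite one. At the score of the last member, 150 eligible Ensembl genes stood on the side of the rule (1.46%) and 1 stood on the opposite side, with all 3 low libraries above all 3 high ones by the same factor. At a score of at least 0.45 the numbers were 1910 and 238, and above 0 they were 4224 and 2062. The sizes depend on the scaling. With TMM-scaled CPM, 43 genes reached the same score on the side of the rule (0.419%), all of them members, and 1 on the opposite side, with 3720 and 2906 above 0. The TMM score was above 0 in all 150 members (0.81 to 1.72), so the libraries stayed separated in each. Scored with 1 library left out, between 164 and 527 genes reached it on the side of the rule and between 1 and 6 on the opposite side. The highest count came without maintenance replicate 3, followed by 420 without restricted replicate 3 and 226 without restricted replicate 1. A minimum or maximum over fewer libraries is easier to pass.

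**Figure D5:**
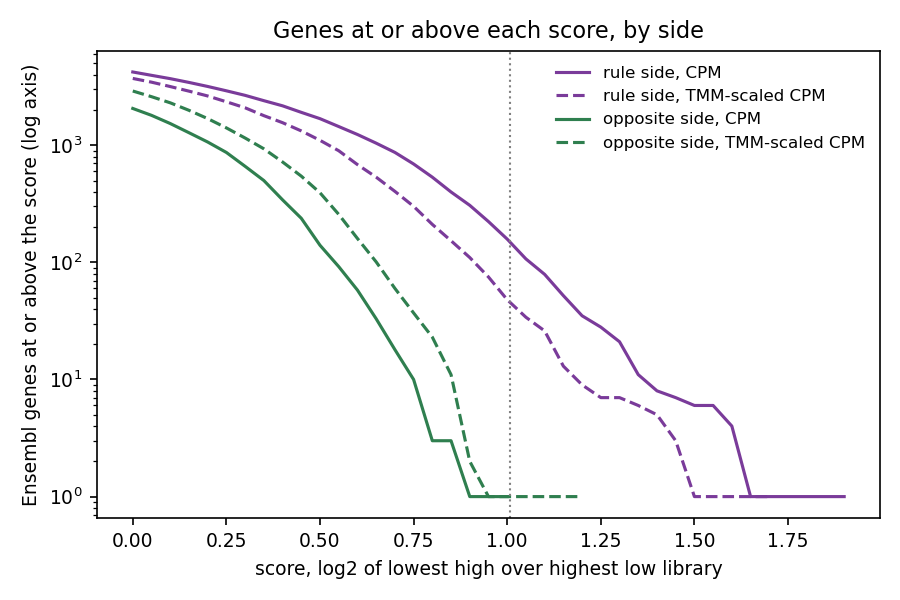
Number of eligible Ensembl genes (log axis) at or above each score, for the side of the rule (purple) and the opposite side (green), with CPM by column totals (solid) and TMM-scaled CPM (dashed). The dotted line marks the score of the last member, where 150 genes stand on the side of the rule and 1 on the opposite side, or 43 and 1 with TMM-scaled CPM.

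Among the 1288 unannotated genes that averaged 10 CPM or more, which carry no Ensembl identifier and could not be members, 10 reached the same score (0.776%) and 1 did so on the opposite side. With TMM-scaled CPM the counts were 6 and 5, so this excess depended on the scaling. Those 10 had mean levels of 11.2 to 113 CPM, scores of 1.02 to 1.43 and lengths of 204 to 12220 bases. Above a score of 0, unannotated genes leaned the other way, with 251 on the side of the rule and 458 on the opposite side.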

How the data were processed

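The authors deposited 2 tables, raw counts and FPKM values, with genes in rows and a column for each sample. Per the submitters' processing notes, TopHat2 and build Oar_v3.1 were used. Counter, strand setting and annotation release: not given in the sources used here. Deposited FPKM values equal the counts scaled by gene length and column total, and lengths were recovered from both tables as whole bases (largest deviation 1.38e-09). CPM was computed from column totals. Of the 4 identifiers the rule leaves out, 0 would have been among the 150.

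Diets were compared in R 4.3.3 with edgeR 4.0.16 (filterByExpr, minimum count 10, minimum total 15; TMM; quasi-likelihood F test; Benjamini-Hochberg adjustment over 22323 genes). The fit was checked on simulated data with less spread than was measured here. Its power at the measured spread was therefore not checked. DESeq2 1.42.0 and limma 3.58.1 (voom, or log2(FPKM + 1) and log2(FPKM + 0.1)) were alternatives. No p is given for the members' summed share, since its genes were chosen on these libraries. Without gene names, at most 4 identifiers were to be named: the 2 members with the highest score and the 2 with the most negative diet change. The planned lists of marker and pathway genes could not be matched. The members and lists were chosen with earlier results of these data known.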

Additional observations from a re-analysis of the deposited data

How the results depend on the processing

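At an adjusted p of 0.05, 0 of the 150 members were called between diets in the 17 fits run with edgeR, DESeq2 or limma, and 0 genes of the whole table except for 9 with DESeq2 and between 0 and 1 when 1 library was left out. The median log2 change of the members was 0.29. It ran from -0.044 to 1.25 when 1 library was left out, turning negative without maintenance replicate 2 (-0.044) or restricted replicate 2 (-0.004), and it stayed above 0 under each other setting. With library size alone as the scaling it was 0.42, while the median of all tested genes moved from -0.052 to 0.083. At an unadjusted p below 0.05 there were 0 members in 15 of the fits, 10 with the first principal component as a covariate and 113 without maintenance replicate 1. The difference in summed share, 0.172 percentage points, ran from -0.071 to 0.546 when 1 library was left out. It was 0.098 with TMM-scaled CPM, 0.103 with RLE-scaled CPM and 0.200 with summed FPKM. Of the 150 members, 121 remained with TMM-scaled CPM, 137 and 105 with pseudocounts of 0.1 and 5, 122 with FPKM, 116 and 94 with a minimum mean of 5 and 20 CPM, and 45 with means in place of the minimum and maximum. Leaving out 1 library kept between 71 and 138. The minimum of 20 CPM by its construction removes the 56 members below it. The cause of the other shifts was not tested. TMM or RLE scaling lowered the number of genes at the members' lowest score from 150 to 43. The count of scores by side and with 1 library left out, the order within sides under other scalings and the length without members under 20 CPM were alternatives chosen after seeing the data. No paired analysis was made because the labels give no pairing between the diets. The smallest count of a member in any library was 11 reads.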
